A study of Danio rerio with 6 samples.

Results

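The genes described here encode 7 enzymes of gluconeogenesis, pyruvate metabolism, glycogen breakdown and the citric acid cycle in zebrafish, namely *agxtb*, *pcxb*, *pck1*, *pklr*, *pygl*, *suclg2* and *sdhb*. They were chosen by name from the 31388 genes of the count table, and all 7 were tested. RNA was measured in *fdx1b*-/- larvae and in their wild-type siblings, both of the AB strain, sampled as whole larvae at 120 hpf (5 dpf) and 3 h after lights on (zeitgeber time 3). Each group had 3 pools of 20 larvae, described by the authors as biological replicates. The labels of both groups carry CTR, which the study uses elsewhere for the controls of its drug treatments. Whether the sequenced larvae were kept in vehicle is not stated. The *fdx1b* gene encodes a mitochondrial ferredoxin that passes electrons to the steroid-producing enzymes, and larvae that lack it do not make cortisol normally. The mutants had been picked by their impaired visual background adaptation, a skin-darkening trait, so that the selection itself rested on a phenotype of the mutation. The larvae compared with the mutants are labelled as siblings and are called wild-type siblings in the study, the name used here.

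Gluconeogenesis makes glucose from lactate, amino acids and glycerol, mainly in the liver. Alanine and serine enter as pyruvate or hydroxypyruvate through aminotransferases, pyruvate carboxylase turns pyruvate into oxaloacetate in the mitochondrion, phosphoenolpyruvate carboxykinase turns oxaloacetate into phosphoenolpyruvate, and glucose-6-phosphatase releases free glucose at the end. Pyruvate kinase runs the opposite way, from phosphoenolpyruvate to pyruvate, and glycogen phosphorylase supplies glucose phosphate from stored glycogen. In mammals, cortisol is known for raising the transcription of the phosphoenolpyruvate carboxykinase gene in the liver.

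The libraries held between 18247332 and 49908095 exonic counts, the smallest being sibling pool 2, and the 7 enzymes had between 1164 and 12918 counts in each library. Levels are given as CPM, the counts of a gene relative to the library total scaled by the TMM method, and differences as log2 fold changes of mutant over sibling from the edgeR quasi-likelihood test, with Benjamini-Hochberg adjustment of *p*-values over the 26544 genes tested. A gene was called where the adjusted *p*-value was 0.01 or less and the log2 fold change was 0.25 or more in size, and a looser threshold of 0.05 on the adjusted *p*-value was used beside it. Over all genes tested, 1.12% were called, 0.618% higher and 0.497% lower in mutants, and 3.89% passed the looser threshold. The *fdx1b* transcript itself had 27 to 42 counts in the mutant libraries and 10 to 30 in the sibling libraries. Its log2 fold change was 0.38 ± 0.25 (SE, with adjusted *p* = 0.421 by edgeR with Benjamini-Hochberg adjustment), so that its level did not tell the genotypes apart and gave no check of the labels.

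The liver glycogen phosphorylase gene *pygl* rose, the aminotransferase gene *agxtb* and the phosphoenolpyruvate carboxykinase gene *pck1* fell, and these 3 of the 7 enzymes were called. The pyruvate carboxylase gene *pcxb* was higher and the pyruvate kinase gene *pklr* lower at the looser threshold without being called. The citric acid cycle genes *suclg2* and *sdhb* passed neither threshold in the main edgeR test. In each of the 7 genes, the 3 mutant pools lay apart from the 3 sibling pools, which was also the case for 26.0% of all genes tested. The enzymes had been picked with results of these data known. For 6 of them the study itself pairs name and identifier only in a list that is ordered by *p*-value. Their share of calls is therefore a description of these genes and not a test of the pathway.

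**Figure D1:**
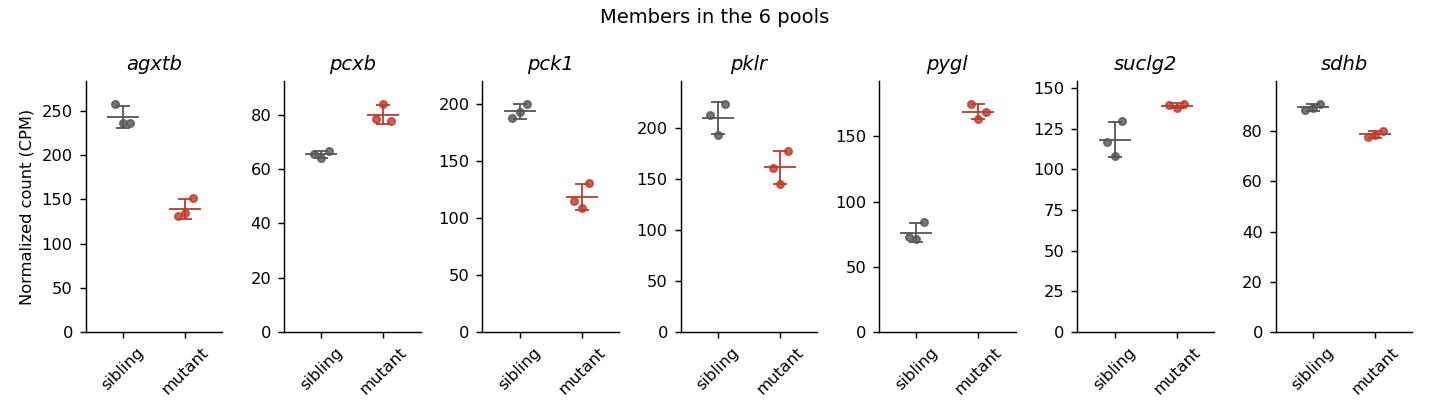
Normalized counts (CPM, y axis, starting at 0) of the 7 enzymes in each of 3 sibling pools (grey) and 3 mutant pools (red). Points are pools, the horizontal bar is the mean and the error bar the SD. *pygl* stands at 71.5 to 84.7 CPM in siblings and 164 to 175 CPM in mutants, while *agxtb* and *pck1* are lower in each mutant pool than in each sibling pool.

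The gene *agxtb* (ENSDARG00000018478) encodes an alanine-glyoxylate and serine-pyruvate aminotransferase, an enzyme through which alanine and serine carbon reaches the gluconeogenic route. It was at 258, 236 and 235 CPM in sibling pools 1, 2 and 3 and at 131, 134 and 152 CPM in mutant pools 1, 2 and 3. The highest mutant pool stood well below the lowest sibling pool. The mean level fell from 243 ± 12.5 CPM in siblings to 139 ± 11.3 CPM (SD, n = 3) in mutants, giving a log2 difference of -0.81 ± 0.08 (SE, with adjusted *p* = 0.000206 by edgeR with Benjamini-Hochberg adjustment, 95% interval -0.98 to -0.64). Leaving out any 1 of the 6 pools kept the call. The related gene *agxt* (AGXT in the name table, ENSDARG00000052099) averaged 48.0 ± 5.95 CPM in siblings and 44.2 ± 2.11 CPM in mutants, with overlapping groups and an edgeR adjusted *p* = 0.407 after Benjamini-Hochberg adjustment. For *agxt2* (AGXT2), a mitochondrial aminotransferase of the same substrate, the log2 fold change was 0.16 with an interval of 0.03 to 0.29 and an adjusted *p* = 0.153 in the edgeR test with Benjamini-Hochberg adjustment.

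Among 13 tested genes of amino acid entry, 2 were called (15.4%, beside 1.12% of all genes tested), both lower, *agxtb* and *gls2a*. At the looser threshold, 3 genes of the list were lower and 0 higher (23.1%, beside 3.89% of all genes tested). The median log2 fold change was -0.09 beside -0.003 over all genes tested. The glutaminase gene *gls2a* makes glutamate from glutamine, and was at 42.4, 35.1 and 38.7 CPM in the sibling pools and 24.4, 24.4 and 25.1 CPM in the mutant pools. Its log2 fold change was -0.66 ± 0.07 (SE, with adjusted *p* = 0.000461, edgeR with Benjamini-Hochberg adjustment), and the groups did not overlap. Of 2 genes named for alanine aminotransferase (GPT), the weakly expressed ENSDARG00000055642 averaged 10.3 CPM in siblings and 7.51 CPM in mutants, with an adjusted *p* = 0.0302 in the edgeR test with Benjamini-Hochberg adjustment. The strongly expressed ENSDARG00000019541 was at 145 and 136 CPM and did not pass either threshold. The tyrosine aminotransferase gene *tat*, a known glucocorticoid-responsive liver gene of mammals, averaged 129 ± 15.2 CPM in siblings and 132 ± 14.5 CPM in mutants (SD, n = 3).

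The gene *pcxb* (ENSDARG00000051939) encodes a pyruvate carboxylase, which opens gluconeogenesis from pyruvate and also refills the citric acid cycle. It was at 65.4, 64.2 and 66.5 CPM in sibling pools 1 to 3 and at 78.4, 84 and 77.6 CPM in mutant pools 1 to 3. The spread within each group was small, and the groups did not overlap. The mean was 65.4 ± 1.19 CPM in siblings and 80.0 ± 3.52 CPM in mutants (SD, n = 3), with a log2 fold change of 0.29 ± 0.05 (SE). The adjusted *p* was 0.0115 in the edgeR test with Benjamini-Hochberg adjustment, just outside the threshold of 0.01, and DESeq2 called the gene with an adjusted *p* = 0.000557. In the other pyruvate carboxylase gene, *pcxa*, the mean was 130 ± 3.99 CPM in siblings and 149 ± 3.87 CPM in mutants, a log2 fold change of 0.20 that did not pass (adjusted *p* = 0.0789 by edgeR with Benjamini-Hochberg adjustment). Per kb of exon, *pcxb* stood at 0.597 of the level of *pcxa* in siblings and at 0.633 in mutants, and the groups of this ratio overlapped (log2 difference 0.09, two-sided exact permutation *p* = 0.3). Without mutant pool 2 this difference was 0.04. In the RefSeq annotation of a later assembly (GRCz12tu), *pcxb* overlaps 5 other gene models, and because the use of strand in counting is not stated, some of its reads may belong to them.

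The gene *pck1* (ENSDARG00000013522) encodes the cytosolic phosphoenolpyruvate carboxykinase, the step at which oxaloacetate is committed to glucose. It was at 188, 193 and 200.3 CPM in sibling pools 1 to 3 and at 115, 109 and 131 CPM in mutant pools 1 to 3. Each mutant pool was below each sibling pool by more than the spread of either group. The mean level fell from 194 ± 6.30 CPM in siblings to 118 ± 11.4 CPM (SD, n = 3) in mutants, giving a log2 difference of -0.71 ± 0.08 (SE, with adjusted *p* = 0.000484 by edgeR with Benjamini-Hochberg adjustment, 95% interval -0.88 to -0.54). The call was kept when any 1 of the 6 pools was left out. The mitochondrial form, *pck2*, averaged 234 ± 18.2 CPM in siblings and 222 ± 9.0 CPM in mutants with overlapping groups, and its log2 fold change of -0.08 had an interval of -0.24 to 0.08. RefSeq (GRCz12tu) places *pmepa1*, which encodes a regulator of TGF-beta signalling, over *pck1*, and *pmepa1* averaged 33.03 CPM in siblings and 31.8 CPM in mutants, a log2 difference of -0.06 (edgeR, adjusted *p* = 0.610 after Benjamini-Hochberg adjustment).

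Glucose-6-phosphatase ends the pathway, and the gene *g6pca.2*, its abundant form in these larvae, also fell. It was at 237, 226 and 264 CPM in the sibling pools and at 134, 148 and 154 CPM in the mutant pools, so that the groups did not overlap. The log2 fold change was -0.74 ± 0.08 (SE, with adjusted *p* = 0.000492 by edgeR with Benjamini-Hochberg adjustment). The less abundant *g6pca.1* averaged 13.6 CPM in siblings and 10.5 CPM in mutants, without overlap. Its log2 fold change of -0.37 passed only the looser threshold (adjusted *p* = 0.0397 by edgeR with Benjamini-Hochberg adjustment). G6PC3 differed by -0.34 without overlap and G6PC1 (ENSDARG00000014967) by -0.17 with overlap, and neither passed. The length-scaled ratio of *pck1* to *g6pca.2* was 0.829 in siblings and 0.842 in mutants, with overlapping groups (two-sided exact permutation *p* = 0.9). The fructose-bisphosphatase genes between these steps were not called. The more abundant *fbp1b* averaged 221 ± 27.5 CPM in siblings and 200 ± 8.60 CPM in mutants, and *fbp1a* at 81.5 ± 3.66 and 86.1 ± 2.93 CPM (SD, n = 3). Among the 13 tested genes of gluconeogenesis, *pck1* and *g6pca.2* were called lower and no gene was called higher. This was a share of 15.4%, beside 1.12% of all genes tested. At the looser threshold there were 3 lower and 1 higher (30.8%, beside 3.89% of all genes tested). The lower gene that was not called was *g6pca.1*, and the higher gene was *pcxb*. The median log2 fold change of the list was -0.11.

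The gene *pklr* (ENSDARG00000042010) encodes the pyruvate kinase of liver and red blood cells, the last step of glycolysis and the counterpart of the *pcxb* and *pck1* pair. It was at 213, 193 and 223 CPM in sibling pools 1 to 3 and at 161, 145 and 177 CPM in mutant pools 1 to 3. The groups did not overlap, but the spread within them was wide against their distance. The mean was 210 ± 15.6 CPM in siblings and 161 ± 16.0 CPM in mutants (SD, n = 3), and the log2 fold change of -0.38 ± 0.09 (SE) had an adjusted *p* = 0.0332 in the edgeR test with Benjamini-Hochberg adjustment. DESeq2 called the gene with an adjusted *p* = 0.000201. The other pyruvate kinase genes were not called. *pkmb* had a log2 fold change of 0.17, and the gene named PKM (ENSDARG00000099730) of -0.16. Within a library, the length-scaled ratio of *pklr* to *pkmb* was 1.37 in siblings and 0.937 in mutants, without overlap of the groups (two-sided exact permutation *p* = 0.10, the smallest that 3 against 3 allows).

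**Figure D2:**
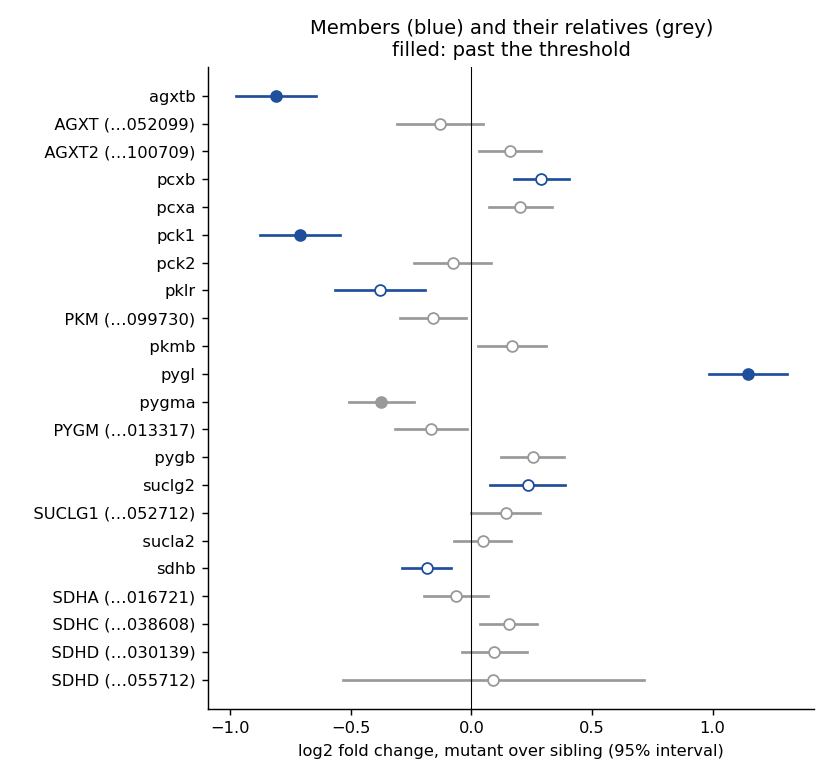
Log2 fold change of mutant over sibling (x axis) with its 95% interval for the 7 enzymes (blue) and their 15 relatives in the same families or complexes (grey), 3 pools per group. Filled points passed the threshold, which were *agxtb*, *pck1* and *pygl* among the 7 enzymes and *pygma* among the relatives. Upper-case names are those of the name table, with the last digits of the identifier.

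The ratio of *pck1* to *pklr* per kb was 0.633 in siblings and 0.502 in mutants, a log2 difference of -0.33. The ratio of *pcxb* to *pck1*, successive steps of gluconeogenesis, was 0.165 in siblings and 0.331 in mutants, a log2 difference of 1.00. In both ratios the 3 mutant pools lay apart from the 3 sibling pools (two-sided exact permutation *p* = 0.10, the smallest possible, and 0.129 adjusted over the 9 ratios computed). No ratio can reach 0.05 with 3 pools in each group. These and the other ratios follow from the levels of their genes, so they describe those levels and add no separate support.

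**Figure D3:**
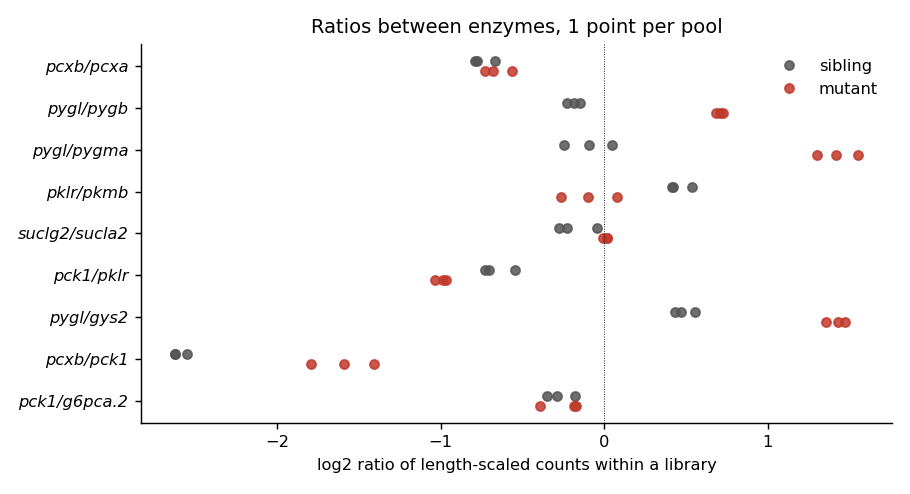
Log2 ratio of length-scaled counts within a library (x axis) for 9 pairs of enzymes, with 1 point per pool, siblings grey and mutants red. The groups are apart in the ratios of *pygl* to *pygb*, *pygma* and *gys2*, of *pklr* to *pkmb*, of *pck1* to *pklr*, of *pcxb* to *pck1* and of *suclg2* to *sucla2*, and overlap for *pcxb* to *pcxa* and *pck1* to *g6pca.2*.

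Among 59 tested genes of glycolysis and pyruvate metabolism, 2 were called (3.39%, beside 1.12% of all genes tested), both lower. The median log2 fold change was -0.04. The pyruvate dehydrogenase kinase gene *pdk2b*, whose product holds pyruvate back from the citric acid cycle by switching off pyruvate dehydrogenase, was at 143, 131 and 105 CPM in the sibling pools and 65.9, 58.3 and 72.8 CPM in the mutant pools. Its log2 fold change was -0.94 ± 0.11 (SE, with adjusted *p* = 0.00075 by edgeR with Benjamini-Hochberg adjustment), and the call was lost in the robust edgeR fit (0.0144). The phosphofructokinase gene *pfkma*, of the muscle type, was at 56.4, 50.9 and 54.5 CPM in the sibling pools and 36.2, 39.2 and 38.1 CPM in the mutant pools, a log2 difference of -0.52 ± 0.06 (SE, with adjusted *p* = 0.000643 in the same edgeR test with Benjamini-Hochberg adjustment). In neither gene did the groups overlap. The other gene named PDK2 (ENSDARG00000020876) was more abundant, averaged 196 CPM in siblings and 176 CPM in mutants with overlapping groups, and was not called. The other gene named PFKM (ENSDARG00000060797) had a log2 fold change of -0.07 and was not called. At the looser threshold, 6 genes of the list were lower and none higher (10.2%, beside 3.89% of all genes tested). Besides *pklr*, *pdk2b* and *pfkma*, these were the glucokinase gene *gck*, at 3.00 CPM in siblings and 1.69 CPM in mutants, the lactate dehydrogenase gene *ldhbb* and the phosphoglycerate mutase gene *pgam2*.

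The gene *pygl* (ENSDARG00000002197) encodes the liver glycogen phosphorylase, which frees glucose 1-phosphate from glycogen. It was at 72.7, 71.5 and 84.7 CPM in sibling pools 1 to 3 and at 175, 164 and 169 CPM in mutant pools 1 to 3. The lowest mutant pool was far above the highest sibling pool. The mean rose from 76.3 ± 7.28 to 169 ± 5.73 CPM (SD, n = 3), an increase of 121% and a log2 difference of 1.15 ± 0.07 (SE, with adjusted *p* = 1.2e-05 by edgeR with Benjamini-Hochberg adjustment, 95% interval 0.99 to 1.31). With any 1 of the 6 pools left out the gene stayed called, at log2 fold changes between 1.11 and 1.23.

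None of the other phosphorylase genes was called higher by edgeR with all 6 pools. The muscle form *pygma* was at 71.4, 63.1 and 68.0 CPM in the sibling pools and 49.4, 55.1 and 52.4 CPM in the mutant pools. It fell by 0.37 on the log2 scale (SE 0.06, adjusted *p* = 0.00747 by edgeR with Benjamini-Hochberg adjustment), a call that was lost without mutant pool 1, 2 or 3 or sibling pool 1, with adjusted *p*-values of up to 0.065 in those edgeR fits with Benjamini-Hochberg adjustment. A further muscle form (PYGM, ENSDARG00000013317) had a log2 difference of -0.17 and was not called. The brain form *pygb* had one of 0.25 and was higher at the looser threshold (adjusted *p* = 0.0391 by edgeR with Benjamini-Hochberg adjustment). It was called higher by DESeq2 (adjusted *p* = 0.00791) and by edgeR without sibling pool 3. Within a library, the length-scaled ratio of *pygl* to *pygma* was 0.935 in siblings and 2.68 in mutants, and that of *pygl* to *pygb* was 0.879 and 1.63. Both ratios separated the groups (two-sided exact permutation *p* = 0.10, the smallest possible).

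Per kb of exon, *pygl* made up 18.9, 19.7 and 21.9% of the summed level of its 4-gene phosphorylase family in sibling pools 1 to 3 and 38.7, 36.1 and 36.8% in mutant pools 1 to 3. The summed level of the family was 115 ± 4.24 CPM per kb in siblings and 139 ± 0.983 CPM per kb in mutants (SD, n = 3), again with the groups apart. Corresponding shares were computed for 5 further families. The shares of all 6 families were added after the values had been seen. The share of *pck1* beside *pck2* was 49.5 ± 1.41% in siblings and 38.6 ± 1.31% in mutants, that of *agxtb* beside *agxt* 80.8 ± 1.90% and 72.2 ± 1.15%, and that of *pklr* among 3 pyruvate kinase genes 39.6 ± 1.31% and 33.3 ± 2.00% (SD, n = 3). The share of *suclg2* beside *sucla2* was 46.8 ± 2.08% and 50.2 ± 0.206%. The groups of each of these shares were apart. The share of *pcxb* beside *pcxa* was 37.4 ± 1.08% and 38.8 ± 1.39%, with overlapping groups, and the difference of 1.41 points was 0.640 without mutant pool 2. For the shares other than that of *pcxb* the two-sided exact permutation *p* was 0.10, the smallest possible. Adjusted over the 6 families, this *p* was 0.12. Each share follows from the levels of the same genes described above, so these *p*-values add no separate support.

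Glycogen synthase makes glycogen, and the liver form *gys2* was at 39.3, 39.6 and 43.1 CPM in the sibling pools and 48.6, 44.0 and 49.4 CPM in the mutant pools. The groups did not overlap, but the log2 fold change of 0.22 did not pass (adjusted *p* = 0.0777 by edgeR with Benjamini-Hochberg adjustment). The length-scaled ratio of *pygl* to *gys2* was 1.40 in siblings and 2.68 in mutants, a log2 difference of 0.93, again without overlap and with the smallest possible exact permutation *p* of 0.10.

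Of 32 tested glycogen genes, 15.6% were called, beside 1.12% of all genes tested. In this list *pygl* was the only one called higher, and 4 were called lower, all of them in glycogen breakdown or its control. At the looser threshold 2 were higher, *pygl* and *pygb*, and 5 lower (21.9%, beside 3.89% of all genes tested). The lower gene that was not called was the phosphorylase kinase subunit gene *phka2*. With DESeq2 and without sibling pool 3, *pygb* was called higher too. Phosphorylase kinase activates glycogen phosphorylase, and *phkg1a*, for its catalytic subunit of the muscle type, and *phka1b*, for a regulatory subunit of the muscle type, were both lower. The catalytic subunit gene was at 12.5, 13.0 and 15.9 CPM in the sibling pools and 7.62, 7.36 and 7.32 CPM in the mutant pools, a log2 difference of -0.90 ± 0.10 (SE, edgeR with Benjamini-Hochberg adjusted *p* = 0.000795). Without mutant pool 3 this call was lost, with an adjusted *p* = 0.0108 in the edgeR fit with Benjamini-Hochberg adjustment. The *phka1b* gene was weakly expressed, at 5.18, 5.68 and 4.73 CPM in the sibling pools and 1.06, 1.83 and 1.97 CPM in the mutant pools, and its log2 fold change of -1.66 ± 0.19 (SE, with adjusted *p* = 0.000773 by edgeR with Benjamini-Hochberg adjustment) was the lowest of the 5 enzyme lists. The debranching enzyme gene *aglb*, needed to degrade glycogen past its branch points, was at 84, 78.2 and 76.8 CPM in the sibling pools and 45.9, 50.5 and 46.5 CPM in the mutant pools, a log2 difference of -0.74 ± 0.06 (SE, with adjusted *p* = 5.11e-05 by edgeR with Benjamini-Hochberg adjustment). The fourth was *pygma*. The median log2 fold change over the 32 genes was 0.02, with 17 genes above 0 and 15 below.

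The gene *suclg2* (ENSDARG00000044914) encodes the GTP-forming beta subunit of succinate-CoA ligase, and was at 117, 108 and 130 CPM in sibling pools 1 to 3 and 140, 138 and 140 CPM in mutant pools 1 to 3. The mutant pools were close together and lay above the sibling pools, which spread widely. The mean was 118 ± 10.9 CPM in siblings and 139 ± 1.36 CPM in mutants (SD, n = 3), and the log2 fold change of 0.23 ± 0.07 (SE, 95% interval 0.08 to 0.39) had an adjusted *p* = 0.0906 in the edgeR test with Benjamini-Hochberg adjustment. The ATP-forming partner *sucla2* had a log2 fold change of 0.05 with overlapping groups, and the shared alpha subunit gene (SUCLG1) one of 0.14 that did not pass. The ratio of *suclg2* to *sucla2* per kb was 0.881 in siblings and 1.01 in mutants, with the groups apart (two-sided exact permutation *p* = 0.10, the smallest possible).

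The gene *sdhb* (ENSDARG00000075768) encodes the iron-sulphur subunit of succinate dehydrogenase, which serves both the citric acid cycle and the respiratory chain. It was at 88.2, 89.2 and 90.7 CPM in sibling pools 1 to 3 and 77.5, 78.3 and 79.9 CPM in mutant pools 1 to 3, with little spread within either group. The mean was 89.4 ± 1.3 CPM in siblings and 78.6 ± 1.23 CPM in mutants (SD, n = 3). The log2 fold change of -0.19 ± 0.05 (SE, 95% interval -0.29 to -0.08) had an adjusted *p* = 0.0521 in the edgeR test with Benjamini-Hochberg adjustment, and its size is below the fold threshold of 0.25. No other subunit of the complex was called. SDHA had a log2 difference of -0.06, SDHC of 0.15, and the 2 genes named SDHD of 0.10 and 0.09.

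Of 24 tested genes of the citric acid cycle, *ogdhb* was called lower and no gene was called higher (4.17%, beside 1.12% of all genes tested). The median log2 fold change was 0.04. The *ogdhb* gene encodes a subunit of the 2-oxoglutarate dehydrogenase complex and was at 93.0, 90.2 and 87.6 CPM in the sibling pools and 76.8, 69.7 and 67.1 CPM in the mutant pools. Its log2 fold change was -0.34 ± 0.06 (SE, with adjusted *p* = 0.00982 by edgeR with Benjamini-Hochberg adjustment), at the edge of the threshold. The call was lost without sibling pool 1 or any 1 mutant pool, where the edgeR adjusted *p* reached 0.0866 after Benjamini-Hochberg adjustment, and under most other settings. The citrate synthase gene (CS) averaged 311 ± 1.38 CPM in siblings and 316 ± 4.84 CPM in mutants (SD, n = 3).

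**Figure D4:**
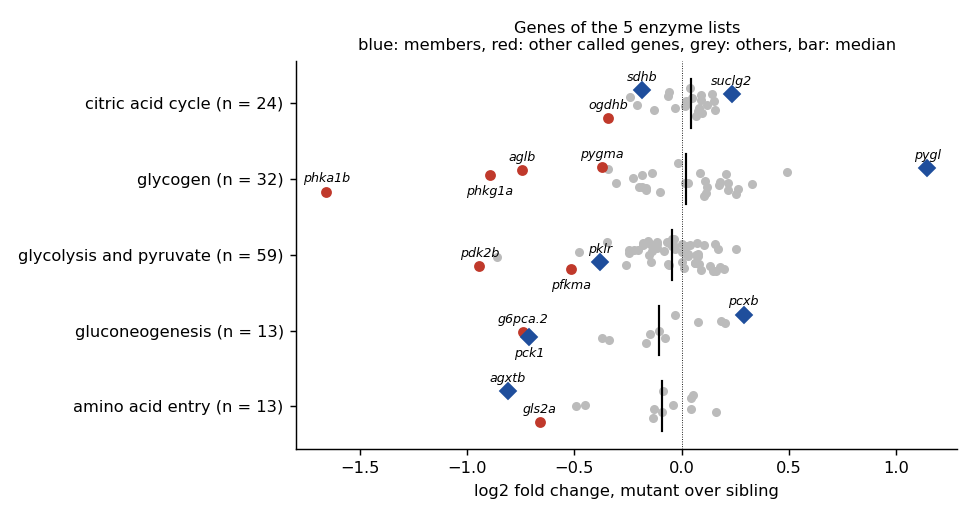
Log2 fold change of mutant over sibling (x axis) for the 140 tested genes of 5 enzyme lists (rows), 1 point per gene. Blue diamonds are the 7 enzymes, red points are other genes past the threshold, grey points the remaining genes, and the black bar is the median of the list. Apart from *pygl* at 1.15, the genes past the threshold lie to the left of 0, and the medians lie between -0.11 and 0.04.

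Over the 5 enzyme lists together, 12 of 140 tested genes were called (8.57%), 1 higher and 11 lower, beside 1.12% of all genes tested, and the median log2 fold change was -0.03. Without the 7 enzymes there were 9 of 133 (6.77%), with 0 higher and 9 lower. At the looser threshold, 1 of those 133 was higher and 15 were lower. Of all 26544 genes tested, 514 were higher and 518 lower at this threshold (3.89%). DESeq2 called 15 of the 133, beside 885 of all 31388 genes. The latter include weakly expressed genes, such as *fdx1b*, that had no DESeq2 adjusted *p*-value and could not be called. Between 9 and 15 of the 140 were called when 1 pool was left out, the lowest count being without mutant pool 3 and the highest without sibling pool 2 or 3. The lists were written with earlier results of these data known. Their counts were not compared by a test with other lists or with genes of similar level. In siblings, the 7 enzymes stood between percentiles 90.4 and 98.1 of the levels of all genes tested. Among 27 tested regulators of glucose metabolism, 1 was called (3.70%, beside 1.12% of all genes tested), the transcription factor gene *cebpd*. It was at 87.5, 98.2 and 97.6 CPM in the sibling pools and 53.0, 54.8 and 62.2 CPM in the mutant pools. The log2 fold change of *cebpd* was -0.73 ± 0.07 (SE, with adjusted *p* = 0.000246 by edgeR with Benjamini-Hochberg adjustment). The glucagon receptor gene *gcgra*, through which glucagon stimulates glycogen breakdown, averaged 17.3 ± 0.399 CPM in siblings and 22.03 ± 0.487 CPM in mutants. Its adjusted *p* = 0.0107 in the same edgeR test with Benjamini-Hochberg adjustment passed only the looser threshold. At that threshold, 2 of the 27 regulators were higher and 1 lower (11.1%, beside 3.89% of all genes tested).

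Per kb of exon, *agxtb* had the highest level of the 7 enzymes in siblings, at 111 ± 5.67 CPM per kb, followed by *pklr* at 106 ± 7.89, *sdhb* at 74.7 ± 1.09, *pck1* at 67.1 ± 2.18, *suclg2* at 49.7 ± 4.57, *pygl* at 23.3 ± 2.22 and *pcxb* at 11.1 ± 0.201 (SD, n = 3). The difference between *agxtb* and *pklr* was within their spread, and the other neighbours in this order were further apart than their SDs. In mutants the order was *pklr* at 81.7 ± 8.09, *sdhb* at 65.6 ± 1.03, *agxtb* at 63.0 ± 5.14, *suclg2* at 58.6 ± 0.574, *pygl* at 51.6 ± 1.75, *pck1* at 41.0 ± 3.94 and *pcxb* at 13.5 ± 0.594 CPM per kb. There *sdhb* and *agxtb*, and *agxtb* and *suclg2*, did not differ beyond their spread. Thus *pygl* stood below *pck1* in siblings and above it in mutants, and *agxtb* went from rank 1 to rank 3.

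Whole larvae mix many tissues, and a lower level of a gene from fewer cells of a type cannot be told apart from less RNA per cell. The summed level of 25 hepatocyte marker genes was 13164 to 14787 CPM in siblings and 15603 to 16114 CPM in mutants. This was a log2 difference of 0.18, with 21 of the 25 genes above 0, 5 called higher and 1 lower. At the looser threshold 9 hepatocyte markers were higher and 1 lower. A single gene, *apobb.1*, made up 43.3% of the hepatocyte sum. The sum of 23 skeletal muscle marker genes was 32974 to 36944 CPM in siblings and 39429 to 41887 CPM in mutants. This was a log2 difference of 0.23, with 22 of the 23 genes above 0 and 1 called higher. At the looser threshold 7 muscle markers were higher and 0 lower. No marker in either list was at 0 in every library. Exocrine pancreas markers summed to 11445 to 13272 CPM in siblings and 9832 to 11461 CPM in mutants, a log2 difference of -0.18, with 13 of 14 genes below 0, a median of -0.21 and 4 lower at the looser threshold. The ranges of the pancreas sums overlapped. Neuron markers summed to 1190 to 1311 CPM in siblings and 1081 to 1186 CPM in mutants, a log2 difference of -0.16, with 8 of 8 genes below 0 and 1 lower at the looser threshold. Enterocyte markers summed to 1971 to 2266 and 2013 to 2175 CPM, a log2 difference of -0.02, with 8 of 11 genes below 0 and 1 called lower. Over all genes tested, 0.618% were called higher and 0.497% lower, and 3.89% passed the looser threshold.

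Set against the hepatocyte sum within each library, *agxtb* differed by -0.99, *pck1* by -0.89, *pklr* by -0.56, *sdhb* by -0.36 and *pygl* by 0.97 on the log2 scale. In these 5 genes the groups did not overlap (two-sided exact permutation *p* = 0.10, the smallest possible, and 0.14 adjusted over the 7 enzymes). For *pcxb* and *suclg2* they were 0.11 and 0.06, with overlapping groups (exact permutation *p* = 0.2 for each). Set against the muscle sum, *agxtb*, *pck1*, *pklr*, *sdhb* and *pygl* differed by -1.04, -0.94, -0.61, -0.41 and 0.93, and *pcxb* and *suclg2* by 0.06 and 0.01. Dividing by a sum lowers the difference of each of the 7 genes by about the shift of that sum, 0.18 for the hepatocyte and 0.23 for the muscle markers, so these values single out no gene. The part of tissue composition in the differences of the 7 enzymes was not tested.

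**Figure D5:**
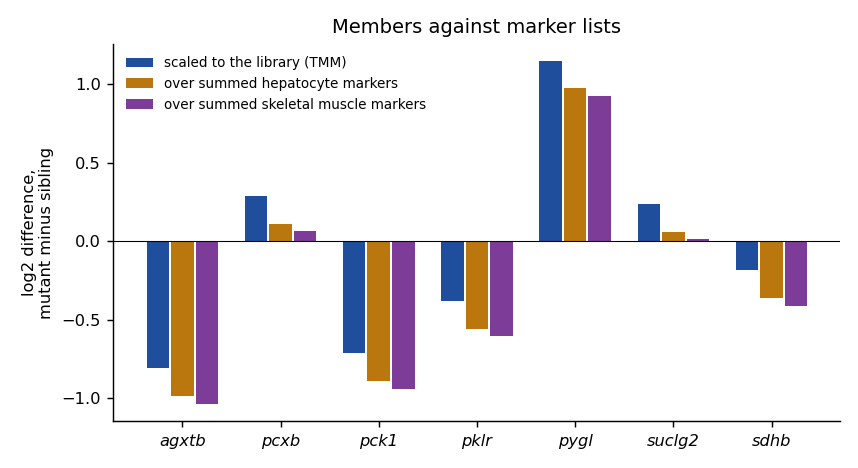
Log2 difference, mutant minus sibling (y axis), of the 7 enzymes scaled to the library (blue), to the summed hepatocyte markers (ochre) and to the summed skeletal muscle markers (purple), each from 3 pools per group. Each gene keeps its direction under the 3 scalings, apart from *suclg2* when the most abundant hepatocyte marker is left out (-0.00028), and the ochre and purple bars of each gene lie below its blue bar by about 0.18 and 0.23, the shifts of the marker sums themselves.

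For the 3 called enzymes, the genes with the most similar pattern over the 6 libraries were sought among 23763 named genes, by the root mean square difference of centred log2 CPM. Both groups enter this measure, so the genes found necessarily differ between the genotypes in the same direction, and their levels are a description. The pattern of *pygl* was nearest to that of *mthfd1a* (0.022), a gene of folate metabolism, which averaged 26.0 ± 2.66 CPM in siblings and 56.2 ± 1.62 CPM in mutants (SD, n = 3). Next came zgc:153913 (0.055) and *pomca* (0.090), which encodes the precursor of the pituitary hormone ACTH and was at 5.97 ± 0.435 and 12.4 ± 0.592 CPM. The pattern of *pck1* was nearest to *cebpd* (0.054), zgc:153968 (0.055) and *chac1* (0.066), a gene of glutathione degradation that averaged 182 ± 8.55 CPM in siblings and 104 ± 8.24 CPM in mutants. The pattern of *agxtb* was nearest to *hsd20b2* (0.047), whose product takes part in cortisol breakdown in zebrafish, to the uncoupling protein gene *ucp1* (0.062) and to *slc2a11l* (0.075). The *hsd20b2* gene averaged 18.3 ± 1.13 CPM in siblings and 10.5 ± 0.354 CPM in mutants, and *ucp1* at 442 ± 21.1 and 266 ± 21.7 CPM (SD, n = 3).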

How the data were processed

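Total RNA, depleted of ribosomal RNA, from 3 *fdx1b*-/- and 3 wild-type sibling pools, each of 20 larvae, was sequenced as single-end reads. Reads were mapped onto GRCz10 with STAR (2.4.0i in the submitters' processing notes), and uniquely mapped reads were counted on each Ensembl gene locus. The deposited values used were the authors' raw exonic counts and exon lengths, and intronic counts were not analysed here. A floor of 3 counts equals 0.0601 to 0.164 CPM per library and covers counting error only.

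Counts were tested in R 4.3.3 with edgeR 4.0.16 (TMM, filterByExpr defaults, quasi-likelihood F test, genotype only, Benjamini-Hochberg adjustment), and 26544 of 31388 genes were kept. DESeq2 1.42.0 was an alternative. The methods were tested on simulated data. Ratios used a prior count of 0.5 and log2 CPM one of 2. Names came from a name table (25925 identifiers) and the study's tables (3819). The members and lists were chosen with earlier results of these data known. Named genes were the members, their relatives, called list genes, genes of the ratios and, per called member, the 3 nearest in pattern. Others were named after their values were seen. Protein and promoter sequences were not analysed here. Alternatives were other scalings, filters and tests, thinning, a replicate block and each pool left out.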

Additional observations from a re-analysis of the deposited data

How the results depend on the processing

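The calls of *agxtb*, *pck1* and *pygl* kept their direction and their side of the threshold under all 15 alternatives, and *sdhb* and *suclg2* stayed uncalled. *sdhb* passed the looser threshold with DESeq2 (adjusted *p* = 0.0434), the robust edgeR fit (0.0368) and edgeR with at least 10 counts (0.0476). *suclg2* passed it with DESeq2 (adjusted *p* = 0.0197) and in edgeR without sibling pool 3 (0.0157). Neither gene passed it in the other alternatives. *pcxb* was also called by DESeq2 (0.29), the robust edgeR fit (0.29) and without sibling pool 3 (range 0.26 to 0.31 when a pool was left out). *pklr* was also called by DESeq2 (-0.375) and without sibling pool 2 (range -0.45 to -0.30). Without mutant pool 1, mutant pool 2 or sibling pool 1, *pcxb* and *pklr* did not pass the looser threshold in edgeR. The Benjamini-Hochberg adjusted *p* in these edgeR fits was 0.0514, 0.0822 and 0.0640 for *pcxb*. For *pklr* it was 0.134, 0.179 and 0.128. DESeq2 called 885 genes and found 1690 at the looser threshold (adjusted *p* 0.05), against 296 and 1032 with edgeR, and called 5 of the 7 enzymes, 4 genes of amino acid entry, 5 of glycolysis and pyruvate metabolism, 2 regulators, 20 genes of the 5 lists and 15 without the 7 enzymes. The citric acid cycle list held 0 called genes with DESeq2 size factors, upper-quartile factors, TMM without the 20 most abundant genes, no filter, at least 10 counts, the replicate block and thinning, since *ogdhb* stood at the threshold. Calls of regulators were 2 with upper-quartile factors, TMM without the 20 most abundant genes, no filter and the robust fit, which called 1 glycolysis gene (*pdk2b* was lost).

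When a pool was left out, calls ranged from 109 to 622 over all genes, lowest without sibling pool 1 and highest without sibling pool 3, and from 308 to 2123 at 0.05. They ranged from 3 to 4 over the 7 enzymes, 9 to 15 over the 5 lists, 6 to 11 without the enzymes, 2 to 3 for amino acid entry, 0 to 1 for the citric acid cycle, 3 to 6 for glycogen, 2 to 5 for glycolysis and 1 to 2 for regulators. The log2 difference in *pck1* to *g6pca.2* ranged from -0.016 to 0.094, that in *pcxb* to *pcxa* from 0.039 to 0.124, and that of *suclg2* over hepatocyte markers was -0.00028 without the most abundant marker, so the signs of *pck1* to *g6pca.2* and of *suclg2* over these markers are not stable. Deviations of same-numbered pools from their group means had correlations of -0.141, -0.14 and 0.091, and those of other pairings ranged from -0.159 to 0.219. No shared source is given for a number, so the main test did not pair the samples. Whether same-numbered pools share a source cannot be told from 3 pools per group. The replicate block gave 202 calls and 622 at 0.05, with 3 of the 7 enzymes called. *pygma* lost its call with the block (edgeR adjusted *p* = 0.0271) and with thinning (0.0145). The causes of these changes were not tested. With 3 pools per group, exact tests cannot go below 0.10.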
